A study of Mus musculus with 16 samples.

Results

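Integrins and laminins were taken from an RNA-seq count table of 6DT1, a mammary cancer cell line of the mouse whose strain label is FVB/N1. Every row name made of the integrin prefix Itga or of Itgb with a chain number from 1 to 8, or of a laminin prefix (Lama, Lamb, Lamc) with a chain number from 1 to 5, was considered, and 35 of 25745 genes are described. These were 18 integrin alpha chains, 8 integrin beta chains, 4 laminin alpha chains, 3 laminin beta chains and 2 laminin gamma chains. Lama1 has no row of its own in the count table and was not analysed here. The cells had been transduced with a lentivirus for CLIC4 expression (lentivirus cells) or with an empty-vector lentivirus (empty-vector cells). Either kind was left untreated or was kept with 1 µM H2O2, and RNA was taken at 24 h, with 4 libraries for each of the 4 groups. In the library numbers of the titles, 1 to 4 are untreated lentivirus cells, 5 to 8 treated lentivirus cells, 9 to 12 untreated empty-vector cells and 13 to 16 treated empty-vector cells. In the descriptions of the samples, the word for the empty-vector libraries is CLIC4 knockout and that for the lentivirus libraries is wild-type, whereas the series text speaks of the vectors alone, and so the groups are named here by vector. Clones or pools of transduced cells are not told apart in the labels. Nor is it stated whether libraries of 1 group were separate cultures, and the p-values therefore measure the spread between these libraries alone, which may be technical.

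Integrins are cell surface receptors made of 1 alpha and 1 beta chain, and a chain reaches the surface only with a partner it can pair with. Laminins are cross-shaped trimers of 1 alpha, 1 beta and 1 gamma chain, the main adhesive proteins of basement membranes, and are named by their chains, so that laminin α5β1γ1 is made from Lama5, Lamb1 and Lamc1. In mammary epithelium, laminins lie at the base of the epithelial layer and are bound mainly by the integrins α3β1, α6β1 and α6β4.

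The files bore on the labels and on the libraries as follows. Clic4 was at 39.5 to 45.1 TMM-scaled CPM (counts relative to the effective library size) in the empty-vector libraries other than library 11, at 138 in library 11 and at 222 to 258 in the 8 lentivirus libraries. Library 11 also stood apart in other genes: Epcam was at 6.08 FPKM (fragments per kilobase of transcript and per M mapped, a level per gene length) and Csf1r at 4.78 FPKM in it, against at most 0.02 and 0.01 in the other 15 libraries. The untreated vector comparisons of single genes are therefore given with and without library 11. Of the epithelial markers, Krt8 and Krt18 were abundant, at 232.6 to 372.5 and 69.9 to 173 FPKM outside library 11, while Epcam, Cdh1, Krt5 and Krt14 were at most 0.04 FPKM there. Of the mesenchymal markers, Vim was at 1944 to 3051 FPKM in those 15 libraries, Zeb1 at 13.3 to 20.6 and Cdh2 at most 0.01. The sums of both marker lists moved with the vector, and were nearly all Krt8 and Krt18 or Vim. The 6 epithelial markers summed to 302 to 329 FPKM in lentivirus and 489 to 544 in empty-vector libraries other than library 11 (385). The 3 mesenchymal markers summed to 1959 to 2100 and 2830 to 3069 FPKM in the same order (library 11, 1469). Of 4 endothelial markers, Cdh5 took the sum to 21.3 to 23.0 FPKM in lentivirus cells, against 1.00 to 2.00 in empty-vector cells, while Kdr and Tek were at most 0.04 FPKM throughout. The part of these marker differences in the results was not tested. The 4 fibroblast markers summed to 2.93 to 5.01 FPKM in all groups, but single markers varied more. Outside library 11, Pdgfra ran from 0.67 to 3.27 FPKM, Dcn from 0.03 to 1.58 and Col1a1 from 0.38 to 1.91. In either lentivirus group 2 of these markers were at 1 FPKM or more in all libraries, and in either empty-vector group 1 was. Total counts ran from 47.1 to 61.9 M.

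Of the 35 genes, 25 had enough counts to be tested, 19 integrins and 6 laminins. The other 10 (Itga4, Itga9, Itgad, Itgae, Itgal, Itgb6, Itgb8, Lama2, Lama3 and Lama4) had from 1 to 102 counts each, summed over all 16 libraries. In 20 genes the mean reached 1 FPKM in at least 1 group: 9 integrin alpha chains, 6 integrin beta chains, Lama5, Lamb1, Lamb2, Lamb3 and Lamc1. The plot of FPKM by library shows these 20 genes. The tested members outside these 20, Itga1, Itga10, Itga11, Itgax and Lamc3, were at or below 1.13 FPKM in each library.

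**Figure D1:**
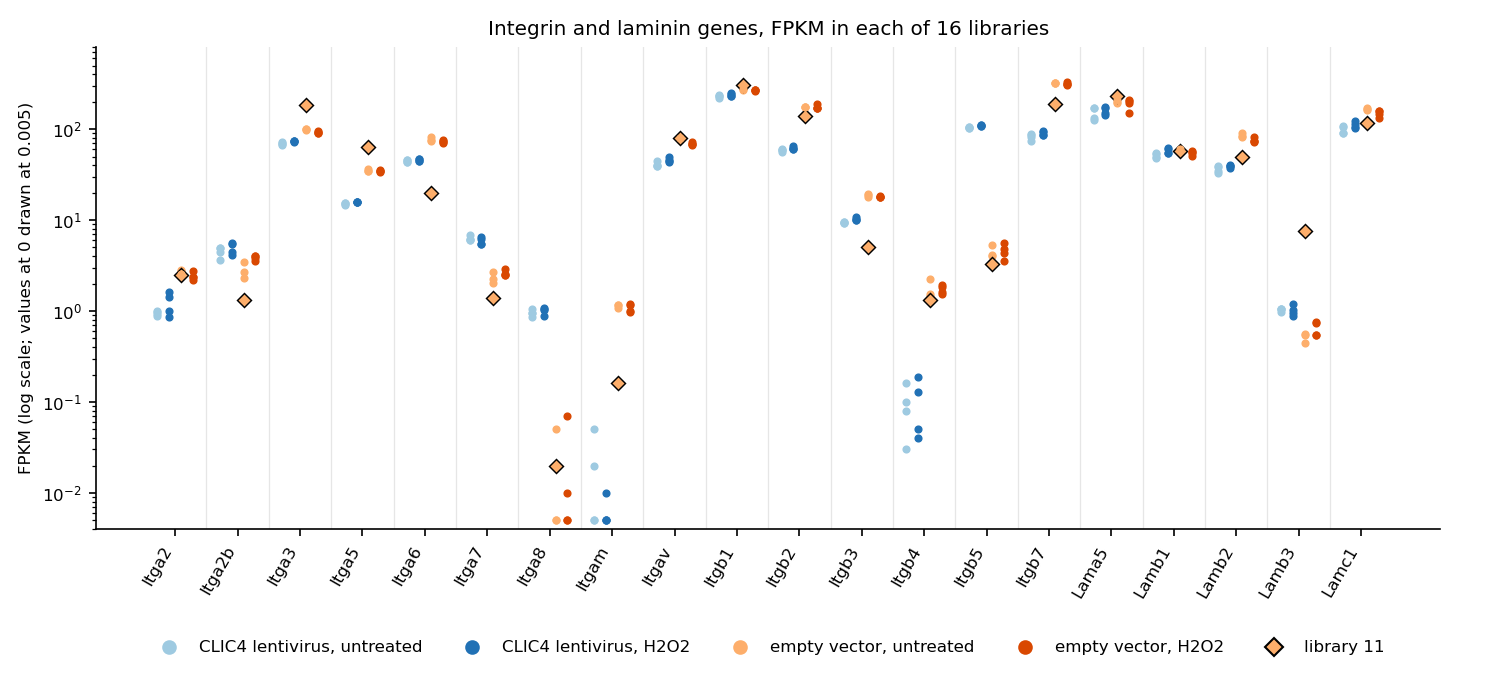
FPKM (log axis, values listed at 0 drawn at 0.005) of the 20 integrin and laminin genes with a mean of at least 1 FPKM in a group; each point is 1 library, coloured by group, and the diamond is library 11. Itgb5 lies above 100 FPKM in the lentivirus libraries and below 6 in the empty-vector ones, Itgb4, Itgam, Itgb2 and Itgb7 lie the other way, and library 11 departs from its group most in Lamb3.

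In untreated cells, 17 of the 25 tested genes were higher in empty-vector than in lentivirus cells and 6 were lower, at a Benjamini-Hochberg adjusted p under 0.05 in the edgeR quasi-likelihood test over all genes. Over all 14445 genes tested, 29% were higher and 24.3% lower, so that the lower share of the members (24%) was near the background and the higher share (68%) above it. With a change of at least 2-fold as well, 9 genes were higher and 5 lower, against a background of 12.1% and 9.81%. Integrins accounted for 12 of the higher and all 6 lower genes, and 5 of the 6 laminins were higher. The median log2 change was 0.80 over the 25 genes and 0.03 over all genes. Without library 11, 18 were higher and 7 lower (background 37% and 37.3%), of which 8 and 6 by at least 2-fold (10.1% and 10.3%), with a median log2 change of 0.77 against -0.02. Fewer cells that express a gene and less RNA per cell cannot be told apart in these bulk samples.

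In H2O2-treated cells, which share no library with the untreated comparison, 14 of the 25 genes were higher in empty-vector cells and 5 lower, where 22.1% and 20% of all genes were. At least 2-fold changes were 8 higher and 5 lower, against 9.63% and 7.59% of all genes. Of the 6 laminins, Lamb2, Lamc1 and Lamc3 were higher and none was lower at the threshold. The median log2 change was 0.57 over the members and -0.01 over all genes. Library 11 is in neither treated group, but it enters the estimate of the spread that all groups share, and without it 16 genes were higher and 7 lower (background 36.6% and 37.2%), of which 8 and 5 by at least 2-fold (10.3% and 8.62%). Called higher in both the untreated and the treated comparison were 13 genes, and called lower in both were 5, Itga1, Itga7, Itga8, Itga11 and Itgb5, where 19.5% and 16.3% of all genes were. Without library 11 these were 16 and 7 genes (background 33.3% and 32.3%), with Itga3, Itga6 and Itgb1 added to the higher and Itga2b and Lamb3 to the lower. Itga1, Itga8 and Itga11 (12, 10 and 0 counts in untreated empty-vector cells) passed the filter only through the lentivirus libraries. Itgam, Itgax and Lamc3 (16, 8 and 24 counts in untreated lentivirus cells) passed only through the empty-vector libraries. Their calls are thus no independent support, and the same filter was applied to all genes. The plot of the log2 changes gives both comparisons.

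**Figure D2:**
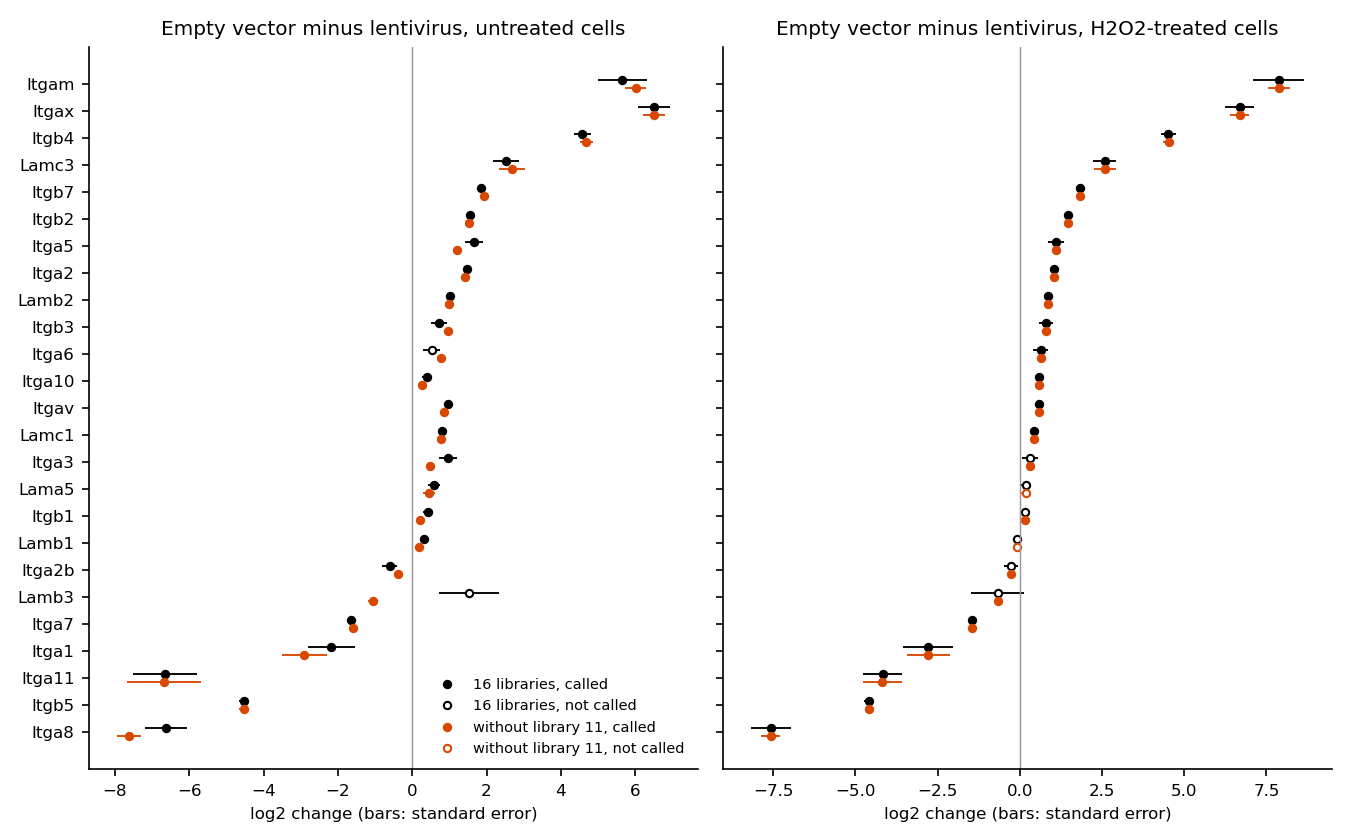
Log2 change (empty vector minus lentivirus, with its standard error) of the 25 tested integrin and laminin genes in untreated cells (left) and H2O2-treated cells (right); filled points passed the test, black with 16 libraries and orange without library 11. Itgb5, Itga8 and Itga11 lie at the lower end and Itgam, Itgax and Itgb4 at the upper end on both sides, and Lamb3 changes side in untreated cells when library 11 is left out.

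The sequences before the start of 4 genes are shown because each had a change of over 4 log2 units in both treatments and they cover both directions and a pair of neighbours: Itgb5 and Itga8, lower in empty-vector cells, and the adjacent Itgam and Itgax, higher in them. Itga11 and Itgb4 also passed that size and are not shown. Each sequence is the 250 bases before the RefSeq start (GRCm38.p6, 5′ to 3′ on the strand of the gene), at chr16:33829415-33829664 (plus) for Itgb5, chr2:12301945-12302194 (minus) for Itga8, chr7:128062390-128062639 (plus) for Itgam and chr7:128129300-128129549 (plus) for Itgax. Capitals mark matches to the GC box (GGGCGG or CCGCCC), the PU.1 core (GAGGAA or TTCCTC) and the AP-1 motif (TGAGTCA or TGACTCA) on both strands.
Itgb5: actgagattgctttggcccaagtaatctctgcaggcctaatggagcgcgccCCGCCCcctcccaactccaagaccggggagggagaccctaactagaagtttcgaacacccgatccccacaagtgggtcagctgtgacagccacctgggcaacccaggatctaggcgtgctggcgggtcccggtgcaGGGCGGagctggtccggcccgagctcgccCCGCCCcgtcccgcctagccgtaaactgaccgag
Itga8: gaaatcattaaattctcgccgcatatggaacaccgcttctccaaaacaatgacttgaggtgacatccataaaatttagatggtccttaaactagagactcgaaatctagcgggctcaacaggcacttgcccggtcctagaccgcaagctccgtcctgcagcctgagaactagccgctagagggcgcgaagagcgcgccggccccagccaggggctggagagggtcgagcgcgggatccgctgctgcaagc
Itgam: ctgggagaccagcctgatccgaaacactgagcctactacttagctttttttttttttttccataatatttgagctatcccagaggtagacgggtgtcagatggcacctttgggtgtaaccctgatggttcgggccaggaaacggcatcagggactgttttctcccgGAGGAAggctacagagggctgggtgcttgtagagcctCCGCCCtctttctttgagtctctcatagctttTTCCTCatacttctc
Itgax: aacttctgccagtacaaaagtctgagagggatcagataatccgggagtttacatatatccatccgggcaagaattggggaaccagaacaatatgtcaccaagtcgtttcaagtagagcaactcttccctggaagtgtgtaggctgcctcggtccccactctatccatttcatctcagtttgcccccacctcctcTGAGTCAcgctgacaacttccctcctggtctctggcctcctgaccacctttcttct
Itgb5 held 3 GC boxes, Itgam 1 GC box and 2 PU.1 cores, Itgax 1 AP-1 motif and Itga8 none of these letters. Of 32851 RefSeq windows of the same length, 32.7% held the GC box, 23.3% the PU.1 core and 4.46% the AP-1 motif. Of 35 members, 23 had an entry, 26 windows in all, and 34.6%, 50% and 3.85% of these held the same motifs. A match describes letters and no binding was measured.

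Among the 6 tested β chains, Itgb5 alone was lower in empty-vector cells. It encodes β5, which pairs with the αv chain alone and binds vitronectin through an RGD motif. The gene lies at chr16:33829665-33949338 on the plus strand (mm10, GENCODE vM21). Its level was 105, 105, 103 and 102 FPKM in untreated lentivirus libraries 1 to 4, and 111.1, 110.99, 109 and 109.5 in treated libraries 5 to 8. In empty-vector cells it was 4.07, 4.12, 3.25 and 5.34 FPKM in libraries 9 to 12, and 5.58, 4.78, 4.31 and 3.58 in libraries 13 to 16. All 8 empty-vector libraries, library 11 among them, were far below all 8 lentivirus libraries, with no overlap. The log2 change was -4.53 ± 0.13 (SE, n = 4 and 4, adjusted p = 3.57e-12) in untreated cells and -4.59 ± 0.13 (adjusted p = 3.39e-12) in treated cells. Without library 11 the untreated value was -4.52.

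Itgb3 and Itgb1, which also pair with αv, did not fall with Itgb5. Itgb3, the β chain of the vitronectin receptor αvβ3 and of the platelet receptor αIIbβ3, was at 9.46, 9.33, 9.26 and 9.59 FPKM in libraries 1 to 4 and at 17.8, 19.3, 5.09 and 19.1 in libraries 9 to 12. Libraries 9, 10 and 12 were above every lentivirus library and library 11 was below them, so that the untreated groups overlapped. In treated cells Itgb3 was at 10.7, 9.97, 10.3 and 10.0 FPKM with the lentivirus and at 17.95, 18.1, 18.2 and 17.97 with the empty vector, without overlap. Its log2 change was 0.72 ± 0.21 (adjusted p = 0.0106) in untreated cells, 0.96 ± 0.03 without library 11 (adjusted p = 2.71e-15), and 0.79 ± 0.21 (adjusted p = 0.00679) in treated cells.

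Itgav, the αv chain itself, was higher where Itgb5 was lower. Its level was 38.9, 44.4, 40.4 and 39.2 FPKM in libraries 1 to 4, 49.4, 45.02, 45.3 and 43.8 in libraries 5 to 8, 76.8, 77.5, 80.4 and 80.2 in libraries 9 to 12, and 68.4, 71.7, 68.8 and 66.2 in libraries 13 to 16. Every empty-vector library was above every lentivirus library. In log2 terms the change was 0.97 ± 0.10 (adjusted p = 1.78e-06) in untreated cells, 0.85 without library 11, and 0.57 ± 0.10 (adjusted p = 0.000268) in treated cells.

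Set side by side, the αv family changed in its make-up. Per library, Itgb5 was 11.1 ± 0.25 times Itgb3 in FPKM (SD, n = 4) in untreated lentivirus cells and 10.7 ± 0.36 times in treated ones. In empty-vector cells the ratio was 0.34 ± 0.20 untreated, 0.24 ± 0.035 without library 11 (n = 3), and 0.253 ± 0.047 treated. The summed FPKM of the αv partners other than Itgb1 was 113 ± 1.31 and 120 ± 1.37 in untreated and treated lentivirus cells. It was 19.6 ± 7.44 in untreated empty-vector cells, 23.3 ± 1.27 without library 11, and 22.6 ± 0.82 in treated ones. Itgav thus stood at 0.391 ± 0.023 times Itgb5 in untreated lentivirus cells and at 19.4 ± 4.0 times it in untreated empty-vector cells. Of the remaining αv partners, Itgb6 had 56 counts over all 16 libraries, 37 of them in library 11, and Itgb8 had 2. These ratios are descriptions of RNA, with no test.

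Itga2b, the αIIb chain that pairs with Itgb3, went the other way from Itgb3. It was at 3.67, 4.98, 4.98 and 4.42 FPKM in libraries 1 to 4 and at 2.31, 2.67, 1.33 and 3.43 in libraries 9 to 12, with no overlap, and the log2 change was -0.61 ± 0.21 (adjusted p = 0.0254, and -0.39 without library 11, adjusted p = 0.00107). In treated cells the log2 change was -0.27 ± 0.21 and did not pass (adjusted p = 0.339), with FPKM from 4.12 to 5.64 with the lentivirus and 3.59 to 4.00 with the empty vector. Without library 11 the same treated change passed (adjusted p = 0.00865), although the groups overlapped in CPM. Platelet markers moved beside these genes in part: Gp1ba and Gp9 were at most 0.21 FPKM, while Pf4 was the only one of the 3 listed above 1 FPKM, and their summed FPKM was 2.63 to 4.16 in lentivirus and 9.48 to 14.0 in empty-vector libraries. Their part in the result was not tested.

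Itgb7 and Itgb2, the β chains known from white blood cells, were both abundant. Itgb7 (chr15:102215995-102231944, minus strand), whose known partners are α4 and αE, was at 87.7, 81.6, 74.5 and 86.3 FPKM in libraries 1 to 4, 86.4, 91.9, 85.3 and 94.3 in libraries 5 to 8, 323, 323, 187 and 324 in libraries 9 to 12, and 316, 315, 332.1 and 309 in libraries 13 to 16. All empty-vector libraries were above all lentivirus libraries, and library 11 lay between the rest of its group and the lentivirus cells. The fitted log2 change was 1.84 ± 0.08 in untreated (adjusted p = 1.69e-10; 1.92 without library 11) and 1.84 ± 0.08 in treated cells (adjusted p = 1.61e-10). Its partners were close to absent: Itga4 had 1 count over all libraries and Itgae was at most 0.07 FPKM. Itgae had 14 counts in the untreated empty-vector group and 28 in the untreated lentivirus group, which is 1.92-fold lower with an exact 95% counting interval from 0.976 to 3.94 (2.19-fold without library 11, 1.03 to 5.05). In treated cells Itgae had 19 counts with the empty vector and 41 with the lentivirus, 2.18-fold lower (1.24 to 3.97).

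Itgb2 encodes β2, the common chain of the leukocyte integrins LFA-1 (with Itgal), Mac-1 (with Itgam) and CD11c (Itgax) and CD11d (Itgad) receptors. It was at 59.7, 60.3, 55.5 and 59.2 FPKM in libraries 1 to 4, 60.2, 59.8, 61.95 and 64.7 in libraries 5 to 8, 177, 174, 140 and 177 in libraries 9 to 12, and 172, 171, 187 and 172 in libraries 13 to 16. The groups of either treatment did not overlap. Between the vectors the log2 change was 1.56 ± 0.06 in the untreated groups (adjusted p = 2.8e-11; 1.53 without library 11) and 1.47 ± 0.06 with H2O2 (adjusted p = 5.33e-11). In library 11, Itgb2 was below the rest of its group in FPKM and above it in CPM.

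The α partners of β2 were low and higher in empty-vector cells. Itgam (CD11b) was listed at 0.02, 0, 0 and 0.05 FPKM in libraries 1 to 4, 0, 0, 0.01 and 0 in libraries 5 to 8, 1.16, 1.17, 0.16 and 1.09 in libraries 9 to 12, and 1.01, 0.97, 1.15 and 1.18 in libraries 13 to 16. In counts, untreated empty-vector cells held 868 and untreated lentivirus cells 16, a ratio of 56.6 with a 95% counting interval from 34.6 to 99.4, and treated cells held 1070 and 4, a ratio of 265 (103 to 974). The log2 change was 5.66 ± 0.65 without H2O2 (adjusted p = 6.23e-06) and 7.88 ± 0.78 with it (adjusted p = 1.35e-06). Library 4 held most of the untreated lentivirus counts, and without it the untreated change was 6.71. Library 11 was 4.97-fold below the mean of libraries 9, 10 and 12, and without it the untreated change was 6.01.

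Itgax (CD11c) counted 743 against 8 in untreated cells, a ratio of 96.9 (48.9 to 225), and 781 against 7 in treated cells, a ratio of 110.5 (53.4 to 276). Its log2 changes were 6.52 ± 0.43 (adjusted p = 2.09e-08; 6.51 without library 11) and 6.68 ± 0.44 (adjusted p = 1.91e-08). Itgad (CD11d), which was not tested, had 29 counts against 0 in untreated and 43 against 0 in treated cells, at least 10.1-fold (9.39-fold without library 11) and at least 14.2-fold higher with a floor of 3 counts over the group. Every one of the 8 empty-vector libraries held counts of Itgad, and none of the 8 lentivirus libraries did. Itgal, the α chain of LFA-1, had 13 counts over all 16 libraries.

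These 3 genes are neighbours on chromosome 7. Itgam lies at chr7:128062640-128118491, Itgax at chr7:128129547-128150657 and Itgad at chr7:128154376-128223816, all on the plus strand, with 11055 bases between the first pair and 3718 between the second. Itgal, on the same chromosome at 727501 bases before Itgam, was at most 0.01 FPKM in every library. For Itgam, 68.7% of the exonic bases overlap other annotated gene models, none of which is in the count table, and whether the counting used strand is not stated in the sources used here.

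The β2 chain nevertheless far exceeded its partners. In FPKM, the sum of Itgal, Itgam, Itgax and Itgad was 1.89 ± 0.60 in untreated empty-vector cells, 2.19 ± 0.040 without library 11, and 2.09 ± 0.22 in treated ones, against 0.0575 ± 0.045 and 0.0175 ± 0.013 in the lentivirus groups. Itgb2 stood at 95.7 ± 30.3 times that sum in untreated empty-vector cells and 84.5 ± 8.7 times in treated ones. Immune marker genes did not accompany it in the same amounts: of 6 listed, 4 were in the FPKM table, and their summed FPKM was 0 to 0.08 in libraries 9, 10 and 12, 0 to 0.15 in treated empty-vector cells, 0 to 0.02 and 0 to 0.03 in untreated and treated lentivirus cells, and 5.19 in library 11. Ptprc (CD45) and Adgre1 (F4/80) were at most 0.03 and 0.01 FPKM in those 15 libraries, and both were listed at 0 in library 11. The ratio of Itgb2 to its partners in the lentivirus groups rests on FPKM values near 0 and is not given.

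Itgb4, the β4 chain that pairs only with α6 and anchors hemidesmosomes to laminin, was low and higher in empty-vector cells. Its FPKM was 0.03, 0.10, 0.08 and 0.16 in libraries 1 to 4, 0.19, 0.13, 0.05 and 0.04 in libraries 5 to 8, 1.55, 1.47, 1.31 and 2.27 in libraries 9 to 12, and 1.94, 1.84, 1.52 and 1.60 in libraries 13 to 16, with no overlap between vectors. Counts were 1114 against 47 in untreated cells, a ratio of 24.7 (18.5 to 33.8), and 1246 against 53 in treated cells, a ratio of 23.3 (17.7 to 31.3). The log2 changes were 4.58 ± 0.23 (adjusted p = 1.09e-09; 4.69 without library 11) and 4.52 ± 0.22 (adjusted p = 1.13e-09). Even so, Itga6 remained 38.2 ± 18.0 times as high as Itgb4 in untreated empty-vector cells, 45.9 ± 11.3 times without library 11, and 42.6 ± 5.96 times in treated ones.

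Itgb1, the β chain shared by most collagen, fibronectin and laminin receptors, was the most abundant β chain in lentivirus cells and had the smallest log2 changes of the 6 tested β chains. It was at 235, 231, 232 and 221 FPKM in libraries 1 to 4, 247, 232, 242 and 234 in libraries 5 to 8, 281, 267, 307 and 279 in libraries 9 to 12, and 269, 271, 264 and 272 in libraries 13 to 16. Its log2 change was 0.42 ± 0.12 (adjusted p = 0.01) in untreated cells and 0.22 without library 11 (adjusted p = 9.58e-07). In treated cells it was 0.15 ± 0.12 and did not pass (adjusted p = 0.356), but passed without library 11 (adjusted p = 4.15e-05).

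As shares of all β chain FPKM, Itgb1, Itgb5, Itgb7 and Itgb2 made up 47.4%, 21.5%, 17.0% and 12.1% in untreated lentivirus cells. In treated empty-vector cells the same genes made up 34.2%, 0.58%, 40.4% and 22.3%, with SDs between libraries of at most 1.15 percentage points in either group. The untreated empty-vector group without library 11 stood at 34.4%, 0.563%, 40.4% and 22.0%. With library 11, where Itgb1 made up 47.7% and Itgb7 29.0%, the group means were 37.8% and 37.6%. The order of Itgb7 and Itgb1 in the other empty-vector libraries depends on the length used. For Itgb7, the deposited counts and FPKM imply a length of 1550 bases, while its longest annotated transcript has 2683. Per kilobase of the longest transcript, Itgb7 was at 188 ± 1.12 and Itgb1 at 260 ± 7.39 CPM in libraries 9, 10 and 12, whereas in FPKM Itgb7 was at 323 ± 0.89 and Itgb1 at 276 ± 7.88.

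The α chains that bind laminin were led by Itga3 and Itga6. Itga3, the α chain of a main receptor for laminins, was at 67.3, 71.9, 68.0 and 69.95 FPKM in libraries 1 to 4, 74.3, 73.2, 74.3 and 72.7 in libraries 5 to 8, 99.4, 99.7, 182 and 97.3 in libraries 9 to 12, and 91.5, 93.7, 96.5 and 90.9 in libraries 13 to 16. All empty-vector libraries were above all lentivirus libraries, and library 11 was the highest of all. In log2 terms the change was 0.96 ± 0.25 (adjusted p = 0.00491) in untreated cells, and 0.47 ± 0.03 (adjusted p = 1.63e-10) without library 11. In treated cells it was 0.31 ± 0.24, short of the threshold with all libraries (adjusted p = 0.335) and past it without library 11 (adjusted p = 2.38e-08).

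Itga6, the other laminin-binding chain and the partner of both Itgb1 and Itgb4, was at 43.6, 45.5, 46.0 and 43.0 FPKM in libraries 1 to 4, 46.8, 45.1, 47.1 and 44.8 in libraries 5 to 8, 82.3, 76.1, 19.6 and 74.6 in libraries 9 to 12, and 69.7, 72.3, 73.3 and 75.2 in libraries 13 to 16. Library 11 was the lowest of all 16, where it was the highest for Itga3, and it alone made the untreated groups overlap. The untreated log2 change was 0.52 ± 0.22 (adjusted p = 0.0633) with it and 0.77 ± 0.03 (adjusted p = 9.32e-14) without it. The treated log2 change was 0.63 ± 0.22 (adjusted p = 0.0338), a call lost on leaving out any 1 of the 8 treated libraries and in limma on log2(FPKM + 1). Without library 11 the treated change was called, and the treated groups did not overlap.

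Itga7, the laminin receptor chain best known from muscle, went down. It was at 6.23, 6.09, 6.02 and 6.80 FPKM in libraries 1 to 4, 5.45, 6.51, 6.13 and 5.48 in libraries 5 to 8, 2.03, 2.23, 1.39 and 2.68 in libraries 9 to 12, and 2.49, 2.52, 2.93 and 2.56 in libraries 13 to 16, with no overlap between vectors. The fitted log2 change was -1.64 ± 0.10 without H2O2 (adjusted p = 6.65e-09; -1.58 without library 11) and -1.45 ± 0.10 with it (adjusted p = 2.05e-08). Together, the laminin-binding α chains thus split: Itga3 and Itga6 were higher and Itga7 lower in empty-vector cells once library 11 was left out. The ratio of Itga3 to Itga6 was 1.56 ± 0.063 in untreated lentivirus, 1.60 ± 0.025 in treated lentivirus and 1.28 ± 0.050 in treated empty-vector cells, and it was 1.27 ± 0.057 in libraries 9, 10 and 12 and 9.29 in library 11.

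Itga5 and Itgav pair with Itgb1 to bind fibronectin, and Itga2 pairs with it to bind collagen. Itga5 was at 14.6, 15.4, 15.3 and 14.9 FPKM in libraries 1 to 4, 15.8, 15.8, 15.7 and 15.8 in libraries 5 to 8, 34.7, 34.9, 63.7 and 36.0 in libraries 9 to 12, and 34.6, 34.2, 35.3 and 33.4 in libraries 13 to 16, without overlap. Its log2 change was 1.65 ± 0.24 (adjusted p = 5.7e-05) in untreated cells, 1.19 ± 0.03 without library 11, and 1.10 ± 0.24 (adjusted p = 0.00166) in treated cells. Itga2 was at 0.89, 1.00, 0.93 and 0.98 FPKM in libraries 1 to 4 and at 2.81, 2.76, 2.49 and 2.57 in libraries 9 to 12. In treated cells it was at 1.43, 1.00, 1.61 and 0.87 with the lentivirus and 2.72, 2.22, 2.35 and 2.35 with the empty vector, and the vectors did not overlap. Its log2 changes were 1.48 ± 0.11 (adjusted p = 8.17e-08; 1.41 without library 11) and 1.05 ± 0.11 (adjusted p = 2.59e-06).

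The remaining β1 partners included the genes that fell most in proportion. Itga8, the α chain of the nephronectin receptor, was at 1.04, 0.85, 0.95 and 0.95 FPKM in libraries 1 to 4, 1.04, 1.03, 1.09 and 0.89 in libraries 5 to 8, 0.05, 0, 0.02 and 0 in libraries 9 to 12, and 0.07, 0, 0 and 0.01 in libraries 13 to 16. Counts were 10 in empty-vector against 1103 in lentivirus cells untreated, 106-fold lower with a counting interval from 57.3 to 221, and 6 against 1227 treated, 206-fold lower (94.6 to 564). The fitted log2 changes were -6.62 ± 0.57 (adjusted p = 3.21e-07) and -7.57 ± 0.60 (adjusted p = 1.5e-07). Library 11 held 6 of the 10 untreated empty-vector counts, and without it the ratio was 215.

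Itga11 and Itga1, both collagen receptor chains, were near the detection limit. Itga11 had 0 counts in untreated empty-vector cells against 49 in lentivirus cells, at least 15.7-fold lower with a floor of 3 counts over the group (at least 12.8-fold without library 11), and 3 against 63 in treated cells, 21.2-fold lower (6.93 to 106). Itga1 had 12 against 61 counts, 4.87-fold lower (2.60 to 9.95), and 5 against 37, 7.47-fold lower (2.93 to 24.4). Without library 11, which held 6 of the 12 counts, the untreated ratio of Itga1 was 7.94. Its neighbour Itga2, 20995 bases away on chromosome 13, moved the other way. Itga10, a further collagen receptor chain at or under 1.03 FPKM, had log2 changes of 0.39 ± 0.12 (adjusted p = 0.017; 0.27 without library 11) and 0.58 ± 0.12 (adjusted p = 0.00158). Its values are uncertain, since 33.5% of its exonic bases are shared with Gm42957 and reads there may have been split.

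Summed over the α chains that pair with β1, FPKM was 178 ± 5.4 and 190 ± 4.2 in untreated and treated lentivirus cells, and 309 ± 27.7 and 275 ± 4.8 in the empty-vector cells. Divided by Itgb1 in the same library, that sum was 0.777 ± 0.031 and 0.797 ± 0.012 in lentivirus cells and 1.09 ± 0.040 and 1.02 ± 0.029 in empty-vector cells, with 1.07 ± 0.026 in libraries 9, 10 and 12. The summed α chains were thus further apart between the vectors than the β chain they pair with; this was not tested. The plot of pairing chains sets the αv, laminin receptor and laminin chains side by side.

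**Figure D3:**
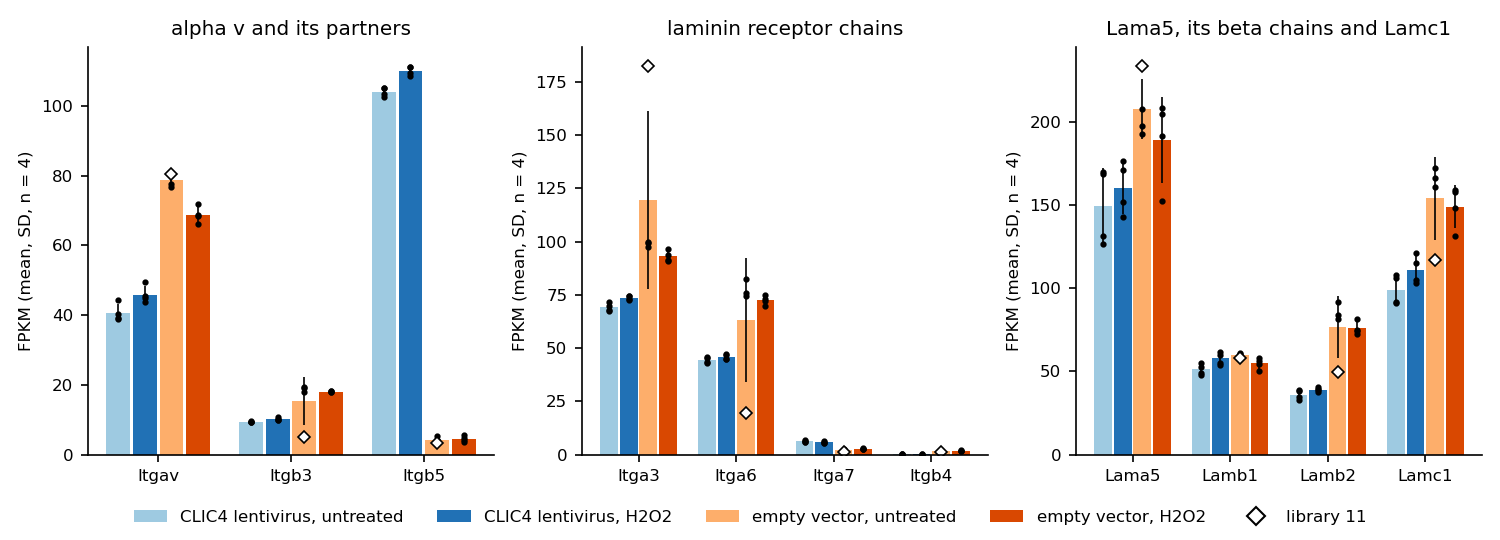
FPKM of chains that pair, as means of 4 libraries with SD (bars) and single libraries (points; the diamond is library 11), for αv and its partners, the laminin receptor α chains with Itgb4, and the chains of laminins α5β1γ1 and α5β2γ1. Itgb5 drops from above 100 to below 6 FPKM while Itgav rises, and library 11 is highest for Itga3 and lowest for Itga6 and Itgb3. Lamb2 rises above Lamb1 in the empty-vector libraries other than library 11, an order that depends on the length used.

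Lama5 was the only laminin α chain with a substantial level. Lama2, Lama3 and Lama4 had 15, 32 and 5 counts over all 16 libraries, at most 0.02 FPKM. Lama5 (chr2:180176373-180225859, minus strand) was at 127, 170, 132 and 169 FPKM in libraries 1 to 4, 176, 152, 171 and 143 in libraries 5 to 8, 193, 198, 233.5 and 208 in libraries 9 to 12, and 208, 205, 192 and 152 in libraries 13 to 16. The untreated vectors did not overlap, whereas the treated ones did. Between the vectors the log2 change was 0.59 ± 0.16 (adjusted p = 0.00726) in untreated cells, 0.45 ± 0.16 without library 11 (adjusted p = 0.0217), and 0.18 ± 0.16 in treated cells, which did not pass with (adjusted p = 0.41) or without library 11 (adjusted p = 0.286).

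Of the β chains that join Lama5, Lamb2 passed the test in both treatments and Lamb1 in untreated cells. Lamb2 was at 34.5, 39.0, 32.7 and 38.0 FPKM in libraries 1 to 4, 38.9, 40.7, 39.3 and 37.4 in libraries 5 to 8, 81.3, 83.7, 49.5 and 91.7 in libraries 9 to 12, and 81.7, 74.6, 74.9 and 72.6 in libraries 13 to 16, without overlap. The log2 change was 1.02 ± 0.08 without H2O2 (adjusted p = 1.38e-07; 0.98 without library 11) and 0.87 ± 0.08 with it (adjusted p = 7.59e-07). Lamb1 was at 47.8, 55.0, 49.3 and 52.7 FPKM in libraries 1 to 4 and at 58.8, 60.5, 58.2 and 61.0 in libraries 9 to 12. In treated cells it was at 61.9, 55.3, 59.9 and 54.1 with the lentivirus and 56.5, 58.1, 54.6 and 50.2 with the empty vector, and these overlapped. Its log2 change was 0.32 ± 0.10 (adjusted p = 0.0149) in untreated cells, 0.19 without library 11, and -0.10 ± 0.10 in treated cells (adjusted p = 0.465).

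Lamc1, the γ chain of laminins α5β1γ1 and α5β2γ1, was higher in both treatments. It was at 91.0, 108, 91.5 and 106 FPKM in libraries 1 to 4, 121, 105, 115 and 103 in libraries 5 to 8, 161, 166, 117 and 172 in libraries 9 to 12, and 159, 158, 148 and 131 in libraries 13 to 16. Every empty-vector library was above every lentivirus library of the same treatment. Its log2 change was 0.80 ± 0.09 without H2O2 (adjusted p = 3.39e-06; 0.77 without library 11) and 0.43 ± 0.09 with it (adjusted p = 0.00103).

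The ratio of Lamb2 to Lamb1 was 0.704 ± 0.028 and 0.678 ± 0.046 in untreated and treated lentivirus cells and 1.28 ± 0.29 and 1.39 ± 0.077 in empty-vector cells, with 1.42 ± 0.069 in libraries 9, 10 and 12 and 0.851 in library 11. Which of them was higher in empty-vector cells depends on the length used: per kilobase of the longest transcript, Lamb2 was at 44.4 ± 2.99 and Lamb1 at 57.6 ± 0.95 CPM in those 3 libraries. In FPKM, Lamc1 kept nearly 1 ratio to the sum of Lamb1 and Lamb2. That ratio was 1.13 ± 0.029 in untreated lentivirus, 1.15 ± 0.047 in treated lentivirus, 1.13 ± 0.029 in untreated empty-vector and 1.14 ± 0.050 in treated empty-vector cells. This too depends on the length used. Per kilobase of the longest transcript, Lamb1, Lamb2 and Lamc1 were at 49.0, 21.8 and 70.9 CPM in untreated lentivirus cells. On that scale they were at 57.6, 44.4 and 125 CPM in libraries 9, 10 and 12. Lama5 stood at 2.15 ± 0.28 and 2.18 ± 0.19 times its receptor chain Itga3 in FPKM in untreated and treated lentivirus cells. In untreated and treated empty-vector cells the ratio was 1.83 ± 0.38 and 2.03 ± 0.27. It was 2.02 ± 0.11 in libraries 9, 10 and 12 and 1.28 in library 11. That Lama5 exceeded Itga3 likewise depends on the length used. Per kilobase of the longest transcript, Lama5 and Itga3 were at 66.7 and 65.1 CPM in untreated lentivirus cells. In libraries 9, 10 and 12 they were at 94.0 and 92.9 CPM on that scale. Summed over the laminin chains described here, FPKM was 337 ± 38.4 and 370 ± 28.5 in lentivirus cells and 501 ± 28.2 and 470 ± 44.5 in empty-vector cells.

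Lamb3, a laminin β chain that assembles with Lama3, was the gene described here on which library 11 weighed most. Lamb3 was at 1.04, 0.97, 1.06 and 1.06 FPKM in libraries 1 to 4, 1.18, 0.88, 1.02 and 0.96 in libraries 5 to 8, 0.56, 0.55, 7.56 and 0.44 in libraries 9 to 12, and 0.73, 0.55, 0.75 and 0.54 in libraries 13 to 16. All empty-vector libraries but library 11 were below all lentivirus libraries. Untreated, its log2 change was 1.53 ± 0.81 (adjusted p = 0.123) with library 11 and -1.04 ± 0.13 (adjusted p = 8e-07) without it. In treated cells it was -0.68 ± 0.81 (adjusted p = 0.549), and -0.67 ± 0.12 without library 11 (adjusted p = 4.25e-05).

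Lamc3, a low γ chain, had 138 against 24 counts in untreated cells, a ratio of 6.00 (3.87 to 9.68; 6.51 without library 11), and 155 against 25 in treated cells, a ratio of 6.14 (4.01 to 9.78).

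Library 11 against the mean of libraries 9, 10 and 12 showed 4 of the 25 tested genes (16%) higher and 4 (16%) lower by 2-fold or more. Over all genes the shares were 17% and 23.1%, so the members did not exceed the background. Lamb3 was 20.1-fold higher, Itga3 2.59-fold, Itga5 2.50-fold and Itga8, at very low counts, 2.07-fold. Itgam was 4.97-fold, Itga6 2.78-fold, Itgb3 2.56-fold and Itga2b 2.31-fold lower. For 5 of the 20 genes above 1 FPKM, Itga2, Itgb2, Lamb1, Lamb2 and Lamc1, library 11 was above the mean of the others in CPM and below it in FPKM, so its direction there depends on the scale. The TMM factor of library 11 was 0.721, against 1.03 to 1.04 in libraries 9, 10 and 12. This factor raises all its CPM values relative to its total counts. The part of the factor in these differences was not tested. Itgb5 differed by 1.01-fold in CPM between library 11 and the other 3.

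H2O2 gave no called change in any integrin or laminin gene. In empty-vector cells 0 of 25 members and 0 of all 14445 genes passed in edgeR (background 0%), DESeq2 called 0 members, and 7 members and 2120 genes had an unadjusted p under 0.05. The smallest adjusted p of a member was 0.339. Without library 11, 0 members and 35 genes (0.24%) passed, with 9 members at an unadjusted p under 0.05 and a smallest member adjusted p of 0.144. In lentivirus cells, edgeR called 0 members and 0 genes (0%) and DESeq2 0 members; 0 members and 255 genes had an unadjusted p under 0.05. Without library 11, which adds only to the shared spread there, still 0 members and 0 genes passed (0%), but 5 members and 2135 genes had an unadjusted p under 0.05 and the smallest member adjusted p fell from 1 to 0.184. The test of the difference between the responses of the 2 kinds of cells also gave 0 members and 0 genes (0%) in edgeR and 0 members in DESeq2, with 4 members and 859 genes at an unadjusted p under 0.05. Without library 11 it gave 0 members and 28 genes (0.192%), with 10 members and 2391 genes at an unadjusted p under 0.05, the smallest member adjusted p being 0.0966 for Lamb1.

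Among genes with a mean of at least 1 FPKM in untreated empty-vector cells, the largest changes with H2O2 there turned on library 11. Lamb3 had a log2 change with H2O2 of -2.26 ± 0.83 with it and 0.32 ± 0.14 without it, and Itga3 of -0.57 ± 0.24 and -0.09 ± 0.03. Without library 11 the values for Itgb1, Itgb2, Itgb3, Itgb5 and Itgb7 in empty-vector cells lay between -0.06 and -0.01, with standard errors of 0.03 to 0.13. In lentivirus cells the same genes lay between 0.04 and 0.11. Itgav, Itga2, Lamb1 and Lamc1 were lower with H2O2 in empty-vector cells in CPM, none past the threshold. Without library 11 their log2 changes were -0.16, -0.19, -0.13 and -0.19. They were picked from the 25 tested members, whose smallest adjusted p there was 0.339, or 0.144 without library 11 (edgeR). The separation of their groups in CPM is not read as a result, since the share of all genes without overlap was not counted. In FPKM, the untreated and treated groups of Itga2 overlapped with or without library 11 (2.49 to 2.81 untreated, 2.22 to 2.72 treated). Lamc1 overlapped in FPKM through library 11 (117, against 131 to 159 treated). The plot of the H2O2 changes shows all 20 genes above 1 FPKM.

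**Figure D4:**
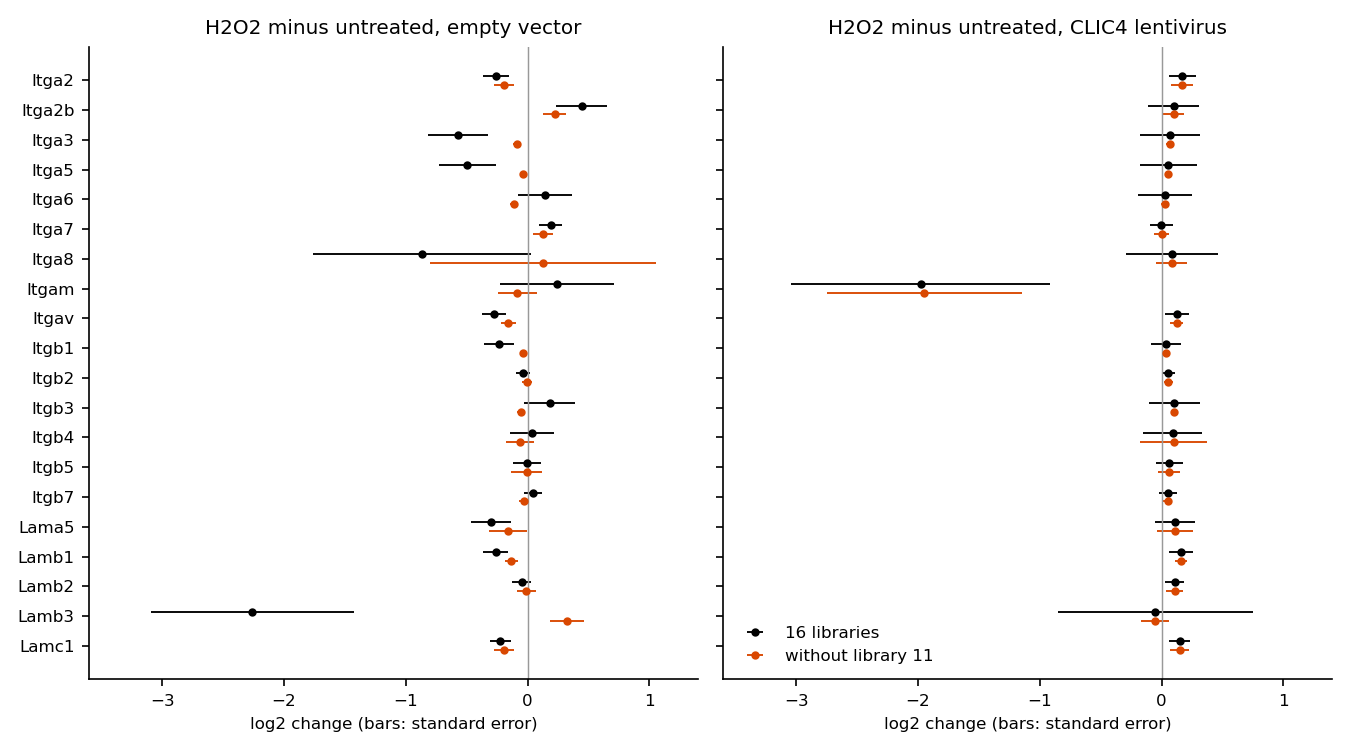
Log2 change with H2O2 (treated minus untreated, with its standard error) of the 20 integrin and laminin genes above 1 FPKM, in empty-vector cells (left) and lentivirus cells (right), black with 16 libraries and orange without library 11. None passed the test; Lamb3 lies at -2.26 on the left with library 11 and at 0.32 without it, and Itgam on the right rests on 16 and 4 counts.

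Genes that act with integrins were followed as 4 lists, whose shares stand against 29% higher and 24.3% lower over all genes in untreated cells (37% and 37.3% without library 11) and 22.1% and 20% in treated cells (36.6% and 37.2%). Of the genes of integrin activation and focal adhesions, 26 of 29 were tested; without H2O2, 12 were higher and 3 lower in cells with the empty vector, 46.2% and 11.5% (15 and 6 without library 11, 57.7% and 23.1%), with a median log2 change of 0.41 (0.17). With H2O2, 7 were higher and 4 lower, 26.9% and 15.4%, which is near the background for the higher genes (14 and 7 without library 11, 53.8% and 26.9%). Vcl, the talin-binding protein vinculin, had an untreated log2 change of 1.44 ± 0.31 (adjusted p = 0.00135) and 0.80 without library 11, and the actin crosslinker Actn4 1.32 ± 0.25 (adjusted p = 0.000623) and 0.82. Lims2 (PINCH-2), an ILK partner, rose by 1.76 ± 0.22 on the log2 scale (adjusted p = 1.13e-05; 1.98 without library 11). Zyx, the focal adhesion protein zyxin, had 1.08 ± 0.41 (adjusted p = 0.0369) with library 11 and 0.13 without it. In treated cells Lims2 and Actn4 were again higher, at 2.05 ± 0.22 (adjusted p = 2.66e-06) and 0.70 ± 0.25 (adjusted p = 0.0357). There Tln2, the second talin, fell by 1.63 ± 0.23 on the log2 scale (adjusted p = 5.04e-05), and Tns1, tensin 1, had -0.63 ± 0.14 (adjusted p = 0.0022).

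Of 9 hemidesmosome and tetraspanin partners, all tested, 5 were higher and 0 lower in untreated cells (55.6% and 0%) and 4 higher and 0 lower in treated cells (44.4% and 0%). Without library 11 there were 6 and 2 in both (66.7% and 22.2%). Plec, which links β4 to keratin filaments, had log2 changes of 0.89 ± 0.12 without H2O2 (adjusted p = 2.72e-05; 0.99 without library 11) and 0.64 ± 0.12 with it (adjusted p = 0.000493). Cd151, the tetraspanin bound to α3β1 and α6β4, had 0.38 ± 0.12 (adjusted p = 0.0157; 0.53 without library 11) and 0.52 ± 0.12 (adjusted p = 0.00269). Cd9, another tetraspanin, passed in untreated cells with library 11 at 1.05 ± 0.42 (adjusted p = 0.0485), and was at 0.06 (adjusted p = 0.28) without it.

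Other basement membrane genes and laminin receptors went both ways: of 16, 13 were tested, 6 were higher and 6 lower in untreated cells (46.2% each), with or without library 11, and 4 higher and 6 lower in treated cells, 30.8% and 46.2% (4 and 7 without library 11, 30.8% and 53.8%). Without library 11 the untreated shares were thus nearer to the background. Hspg2, the proteoglycan perlecan, had an untreated log2 change of 1.03 ± 0.23 (adjusted p = 0.00162; 0.93 without library 11). The syndecans, which bind laminin through their heparan sulphate, split: Sdc1 had 0.98 ± 0.13 (adjusted p = 2.25e-05; 0.77 without library 11) and Sdc4 0.87 ± 0.07 (adjusted p = 7.82e-08; 0.79), while Sdc2 had -0.90 ± 0.14 (adjusted p = 8.65e-05; -0.74). In treated cells Agrn, the laminin-binding proteoglycan agrin, had -0.75 ± 0.08 (adjusted p = 2.78e-06).

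Among 20 listed symbols of other integrin ligands, 15 genes were tested; 10 were higher and 2 lower in untreated cells, 66.7% and 13.3% (9 and 4 without library 11, 60% and 26.7%). In treated cells 8 were higher and 2 lower, 53.3% and 13.3% (9 and 5 without library 11, 60% and 33.3%). The median log2 change in untreated cells was 2.33, and 0.93 without library 11. Spp1, the RGD ligand osteopontin, was at 2210 ± 227 CPM in treated empty-vector against 308 ± 22.5 in treated lentivirus cells, a log2 change of 2.84 ± 0.59 (adjusted p = 0.0013), and in untreated cells at 4.30 ± 0.63 (adjusted p = 6.27e-05) or 2.81 without library 11. Fn1, fibronectin, the ligand of α5β1 and αv integrins, had an untreated log2 change of 3.83 ± 0.44 (adjusted p = 6.41e-06) and 3.01 without library 11. Vcam1, a ligand of α4 integrins, had 2.78 ± 0.17 without H2O2 (adjusted p = 9.45e-09; 2.96 without library 11) and 3.08 ± 0.17 with it (adjusted p = 3.74e-09). Npnt, nephronectin, the ligand of α8β1, rose by 2.71 ± 0.13 on the log2 scale in treated cells (adjusted p = 1.07e-09), where Itga8 was lower. Tnc, tenascin C, had -4.62 ± 0.62 (adjusted p = 2.78e-05) in treated cells, and Ccn1 was at 3.66 ± 1.10 (adjusted p = 0.0127) in untreated cells with library 11 and -0.15 without it (adjusted p = 0.219).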

How the data were processed

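RNA from 6DT1 cells was isolated on a QIAcube with RNeasy chemistry and sequenced as 16 Illumina libraries, per the labels. The authors used cutadapt, STAR, RSEM and mm10, per the submitters' processing notes; their versions, the annotation and the strandedness were not given in the sources used here. Deposited by the authors were gene counts (whole numbers for 25745 genes, which may be rounded RSEM estimates) and FPKM for 25372 genes, which the authors scaled to length and depth. Over 20 members the length implied by counts and FPKM was 0.44 to 0.97 of the longest annotated transcript, so levels are compared between genes with that limit.

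The members and the gene lists were chosen with earlier results of these data known. A row that met the naming rule is not reported here. Groups came from the titles. edgeR 4.0.16 (R 4.3.3; quasi-likelihood F test, robust, TMM, filterByExpr) was fitted to all 16 libraries with 1 coefficient per group, over 14445 genes. Benjamini-Hochberg adjusted p under 0.05 was called, and the standard error is the log2 change over the square root of F. The 5 comparisons set the vectors against each other without and with H2O2, H2O2 against none within each vector, and the 2 responses to H2O2 against each other. Itgad and the other 9 filtered members were given by counts. Floors are 3 counts over a group, and exact 95% intervals on counts cover counting error only. No pair of libraries agreed within sampling noise (lowest chi-square per degree of freedom 5.06).

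Named genes were all members described here, plus, of each of the 4 lists, the 4 called genes with the largest log2 change at an average log2 CPM of at least 2 in each vector comparison; the text names part of these. The alternatives tried were DESeq2 1.42.0, RLE size factors, no filter, 10 CPM in 4 libraries, the compared groups only, limma 3.58.1 with pseudocounts of 1 and 0.1 before the log2 of FPKM (genes at 0.5 FPKM in 4 libraries) and with a pseudocount of 1 unfiltered, and leaving out each library. The test was also run on simulated counts, and the outcome of that run is not given here. The run is not taken to show power or the rate of false calls at the spread of these libraries.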

Additional observations from a re-analysis of the deposited data

Results flagged for a closer look

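In 80 groups of 4 libraries (20 genes in 4 groups), 13 had 1 library further from the other 3 than Dixon's 95% limit for the gap as a share of the group's range, in TMM-scaled CPM; chance flags about 1 in 20 groups. Library 11 was that library in 11 of them, all in untreated empty-vector cells. It was the highest for Itga3 (1133 CPM, the others 430 to 443), Itga5 (353, the others 139 to 144), Itgav (467.2, the others 337 to 352), Itgb1 (1537, the others 932 to 978), Itgb2 (499.8, the others 457 to 464), Lamb1 (444.1, the others 316 to 327) and Lamb3 (40.38, the others 1.66 to 2.08). It was the lowest for Itga6 (93.75, the others 251 to 274), Itgam (0.9071, the others 4.69 to 5.05), Itgb3 (39.47, the others 96.1 to 105) and Itgb7 (382.3, the others 484 to 490). These flags hold for the CPM scale. In FPKM, library 11 was instead the lowest of its group for Itgb2 (140, the others 174 to 177) and Lamb1 (58.2, the others 58.8 to 61.0). The 2 flags of other libraries were small in size. Itgb2 was at 494.4 CPM in library 15 of the treated empty-vector cells, where the others were at 444 to 447. Itgb3 was at 54.22 CPM in library 4 of the untreated lentivirus cells, where the others were at 51.3 to 51.8.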

How the results depend on the processing

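Leaving out library 11 reversed the untreated vector change of Lamb3 to -1.045, and in H2O2 minus untreated of empty-vector cells reversed Itga6 to -0.1095, Itgb3 to -0.05543 and Lamb3 to 0.3214; leaving out each library in turn, these spanned -1.045 to 1.895, -0.1095 to 0.2686, -0.05543 to 0.2944 and -2.62 to 0.3214. The called changes that moved by over 1.5 times with another library were that of Itgam in untreated cells, 6.712 without library 4 and that of Itga11 in treated cells, -5.11 without library 13. In untreated cells, members called lower came to 2 with the 10 CPM filter, which left 15 members, and 3 with the compared groups only, where calls of Itga1, Itga10, Itga2b, Itga3, Itgb1, Itgb3 and Lamb1 were lost. In treated cells, 9 members were higher and 2 lower with the 10 CPM filter, and 3 were lower in limma on log2(FPKM + 1) and on log2(FPKM + 0.1), which left 22 members. Leaving out 1 library gave 16 to 18 higher and 5 to 7 lower in untreated cells and 13 to 16 higher and 5 to 7 lower in treated cells, and 0 in all H2O2 comparisons; the other settings also gave 0 there. Of single genes in the vector comparisons, 165 values in untreated and 164 in treated cells kept direction and call under the other settings, 15 and 10 lost the call and 2 and 7 gained it; the causes were not tested. Limma on log2(FPKM + 1) lost Itga10 and Itgb3 in untreated cells and Itga10 and Itga6 in treated cells. Itga6 in treated cells also lost its call without any 1 of libraries 5 to 8 and 13 to 16. No paired analysis was possible because the groups share no library number. At 47.1 to 61.9 M counts, members under the filter cannot be compared beyond their counting error.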
